A study of Mus musculus with 24 samples.

Results

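Histone-modifying enzymes and bromodomain readers were taken from the deposited expression table by gene symbol, using the families Kdm, Hdac, Setd, Setdb, Ehmt, Ezh, Suv, Mll, Kmt, Prmt, Sirt, Kat, Myst, Brd and Nsd together with Whsc1, Whsc1l1, Dot1l, Crebbp, Ep300, Eed and Suz12. The pattern found 80 of the 9767 listed genes, under 79 symbols, since Hdac4 has 2 entries. It also took in 5 Mllt genes, which are neither histone-modifying enzymes nor bromodomain proteins, which are counted among the 80 and described apart below, with the main counts given without them. The study sorted 2 classes of cortical pyramidal neuron at 6 ages and sequenced their RNA, to follow how gene regulation changes after neurons have left the cell cycle. Cux2 CPN are layer 2/3 callosal projection neurons from Cux2-CreERT2:Ai14 mice, and Tle4 CThPN are layer 6 corticothalamic projection neurons from Tle4-2A-CreERT2:Ai14 mice. Both were taken from the somatosensory and motor cortex at 4 early ages (E18.5 and P1, P3, P7) and 2 late ages (P21, P48). All groups are labelled C57BL/6 (the methods name a mixed C57BL/6J background) and share the Ai14 tdTomato reporter, the inducible Cre and a dose of 4-hydroxytamoxifen (1 mg per 10 g body weight) given to the pregnant mother, so the sorted cells are those in which the Cux2 or the Tle4 locus was active at that dose. Each library pooled 10 animals, 5 male and 5 female, from 2 litters, and held 5000 to 10000 tdTomato-positive neurons.

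There were 24 libraries, 2 for each of the 12 groups, but the deposited values are Cuffdiff estimates that merge both libraries of a group into 1. The values are therefore given without an error or a test, and no difference here has a replicate check. The unit is FPKM, fragments per kilobase of transcript and per 1 M mapped fragments, so levels of different genes can be compared per length. The study's methods state more than 20 M reads per library. FPKM do not keep read numbers, so the depth behind each value is otherwise unknown.

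Histone tails carry acetyl and methyl groups that enzymes add and remove. Acetyltransferases and the bromodomain proteins that read acetyl-lysine are associated with active genes, and deacetylases are often recruited by corepressors. Polycomb repressive complex 2 (PRC2) methylates lysine 27 of histone H3 (H3K27) and keeps developmental genes silent, and its catalytic subunit can be Ezh2, known from dividing progenitors, or Ezh1, known from postmitotic cells. Mutations of several of these genes, among them Ehmt1, Setd5, Nsd1, Crebbp and Kdm5c, cause neurodevelopmental disorders.

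Promoter windows (250 bases before to 50 after an annotated start) from RefSeq, build GRCm38.p6, were matched to 65 of the 79 symbols. They were searched on both strands for short motifs, and the stretches that hold an E2F motif are shown because Ezh2 and Suv420h2, which are among the 10 members with the largest falls, carry it together with Suz12, another PRC2 subunit. E2F factors are regulators of cell cycle genes. The letters searched were TTTCCCGC and TTTGGCGC, and capitals mark the match or its reverse complement. Each stretch of 30 bases is written 5′ to 3′ on the strand of its gene.
Ezh2: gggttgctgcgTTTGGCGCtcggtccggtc
Suz12: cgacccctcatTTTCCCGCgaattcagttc
Suv420h2: ggccagaagagGCGGGAAAaagagagcaat
Sirt4: ccggctgaaggTTTCCCGCtgagcattctt
Brd7: ggcggcctctcTTTCCCGCtggtttgccgg
The stretches lie at chr6:47595009-47595038 (minus strand) for Ezh2, chr11:79992876-79992905 (plus) for Suz12, chr7:4740011-4740040 (plus) for Suv420h2, chr5:115484288-115484317 (minus) for Sirt4 and chr8:88362182-88362211 (minus) for Brd7. In Ezh2 the motif begins 3 bases after the annotated start, and in the others it lies before it. These 5 members are 7.69% of the 65 with a window, against 486 of all 27025 genes with a window (1.8%) and 3.32% of the listed genes with a window. Members had more windows per gene than all genes, 1.43 against 1.22. Of the 10 largest falls, 9 had a window and 2 held a match (22.2%), and the motif is shown because of these 2. The 10 largest rises are 9 symbols, since Hdac4 has 2 entries, and 0 of the 9 held a match. With 9 genes each, these counts are too small to be read against the shares above. The other motifs searched are given for comparison. The ETS motif CCGGAAGT was in 9.23% of members and 9.72% of listed genes, the NRF1 motif CGCATGCG in 4.62% and 4.75%, the YY1 motif AAGATGGC in 6.15% and 5.66%, and the CREB motif TGACGTCA in 1.54% and 4.03%. Over all genes these shares were 4.31%, 2.07%, 3.19% and 2.03% in the same order. A match is a description of the letters in a window and says nothing of binding.

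The labels were in keeping with class markers, since the summed level of 7 callosal markers was 181 to 910 FPKM in Cux2 CPN and 36.5 to 112 FPKM in Tle4 CThPN, and that of 8 corticothalamic markers 48.6 to 119 FPKM and 703 to 836 FPKM. Of 14 genes of cycling cells only Pcna was listed, at 62.5 to 93.4 FPKM over all groups, and Mki67 and Top2a were not. Of 8 genes of radial glia and intermediate progenitors, Hes1, Hes5 and Vim were listed, with sums of 7.52 to 28.3 FPKM. All 5 glutamatergic genes were listed, with sums of 290 to 635 FPKM early and 897 to 1230 FPKM late in Cux2 CPN. In Tle4 CThPN these sums were 372 to 530 FPKM and 1144.9 to 1161.5 FPKM. The late excess lay in Slc17a7, at 5.79 to 194 FPKM early and 713 to 1063 FPKM late in Cux2 CPN. Neurod6 went from 442 FPKM at the youngest age to 108 FPKM at the oldest there, and Neurod2 from 161 to 46.1 FPKM. In Tle4 CThPN Neurod6 and Neurod2 were also lower at the oldest age. Slc17a6 and Neurod1 did not exceed 28.4 FPKM in any group. Glial, blood and dissociation-induced genes moved with age: 4 of 6 astrocyte genes were listed and summed to 6.53 to 9.42 FPKM at the early ages and 50.4 to 65.9 FPKM at the late ages in Cux2 CPN, and to 17.3 to 22.5 FPKM and 253 to 293 FPKM in Tle4 CThPN. The 9 listed of 11 genes from a list of dissociation-induced genes summed to 70.8 to 151 FPKM at the early ages and 1337 to 2505 FPKM at the late ages over both classes. Jun among them did not share this, at 8.33 to 24.8 FPKM early and 13.7 to 24.6 FPKM late in Cux2 CPN. The name is that of the list, and whether dissociation raised Arc, Egr1, Fos and the others was not tested. The 4 listed of 7 oligodendrocyte genes summed to 9.09 to 27.7 FPKM early and 67.2 to 200 FPKM late over both classes. The 4 listed of 5 blood genes, all hemoglobins, summed to 4.45 to 37.99 FPKM early and 79.8 to 219 FPKM late in Cux2 CPN, and to 3.58 to 11.5 FPKM and 20.8 to 174 FPKM in Tle4 CThPN. Sums of the 3 listed of 7 microglia genes were below 10 FPKM apart from 49.0 FPKM in Tle4 CThPN at P21, the group where Cldn5, the 1 listed of 5 endothelial genes, was also highest, at 14.2 FPKM. By the methods, papain was used at 10 U/ml up to P7 and at 20 U/ml at P21 and P48 (the labels give 12 U/ml), so age and digestion cannot be told apart. In pooled RNA, fewer cells of a type and less RNA per cell cannot be told apart either.

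Most members were at their highest level at E18.5 in Cux2 CPN, and about as many as not in Tle4 CThPN. In Cux2 CPN the level was highest at E18.5 for 53 of 80 members (66.2%), against 29.9% of all listed genes, and in Tle4 CThPN for 38 members (47.5%), against 23.3%. Summed over the 80 members, the level of Cux2 CPN was 4157 FPKM at the youngest age and 2076 FPKM at the oldest, and that of Tle4 CThPN 3437 and 2008 FPKM. The median member stood at 29.4 FPKM at the youngest age and 16.2 FPKM at the oldest in Cux2 CPN, while the median of all listed genes was 22.3 and 22.1 FPKM. In Tle4 CThPN these medians were 23.1 and 15.7 FPKM for members and 20.9 and 21.4 FPKM for all listed genes. The glial, blood and dissociation-induced genes above moved with the same ages, and their part in these differences was not tested.

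Early to late changes were computed as the mean of log2(FPKM + 1) over P21 and P48 minus that over E18.5 to P7, a scale on which weakly expressed genes show less than their true ratio. Over members the median change was -0.35 in each class, and over all listed genes 0. It was below 0 for 63 of the 80 members in Cux2 CPN and for 59 in Tle4 CThPN (78.8%, 73.8%, against 49.3% and 49.8% of listed genes). Below, rose and fell are used for differences of at least 1 on the log2 scale, that is, about 2-fold, and the study's own limit of 1.5 is named where it is used. In both classes 15 members fell (18.8%), against 8.52% of all listed genes, and 1 member, Sirt3, rose (1.25%), against 11.7%. In Cux2 CPN 17 members fell (21.2%, against 13.8% of listed genes) and 4 rose (5%, against 17.1%). In Tle4 CThPN 17 fell (21.2%, against 11.7%) and 1 rose (1.25%, against 15%). At the limit of 1.5, 8 members fell in Cux2 CPN (10%, against 7.04%) and 6 in Tle4 CThPN (7.5%, against 5.46%), while 1 rose in Cux2 CPN (1.25%, against 10.9%) and 0 in Tle4 CThPN, against 9.19%.

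The early and late values were also compared by whether they overlapped. Both late values lay below all 4 early values for 35 members in Cux2 CPN (43.8%, against 29.5% of listed genes) and for 39 in Tle4 CThPN (48.8%, against 30.7%). Both late values lay above all 4 early values for 8 members in Cux2 CPN (10%, against 31.4%) and 9 in Tle4 CThPN (11.2%, against 31.9%). Ezh1, Hdac11, Setd3, Setd5, Sirt3 and both Hdac4 entries were above in each class. The listing itself bears on these counts, because a gene enters the table by reaching 10 FPKM in at least 1 group. Of the members, 11 reached it only at early ages (13.8%, against 14.2% of listed genes) and 1, Hdac9, only at late ages (1.25%, against 8.17%), while 51 reached it in all 12 groups (63.7%, against 54.1%). Among the 11 are Ezh2, Kdm1b and Suv420h2, which fell in both classes, and Myst3, which fell in Cux2 CPN, so these 4 are in the table only through ages at which they were high.

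**Figure D1:**
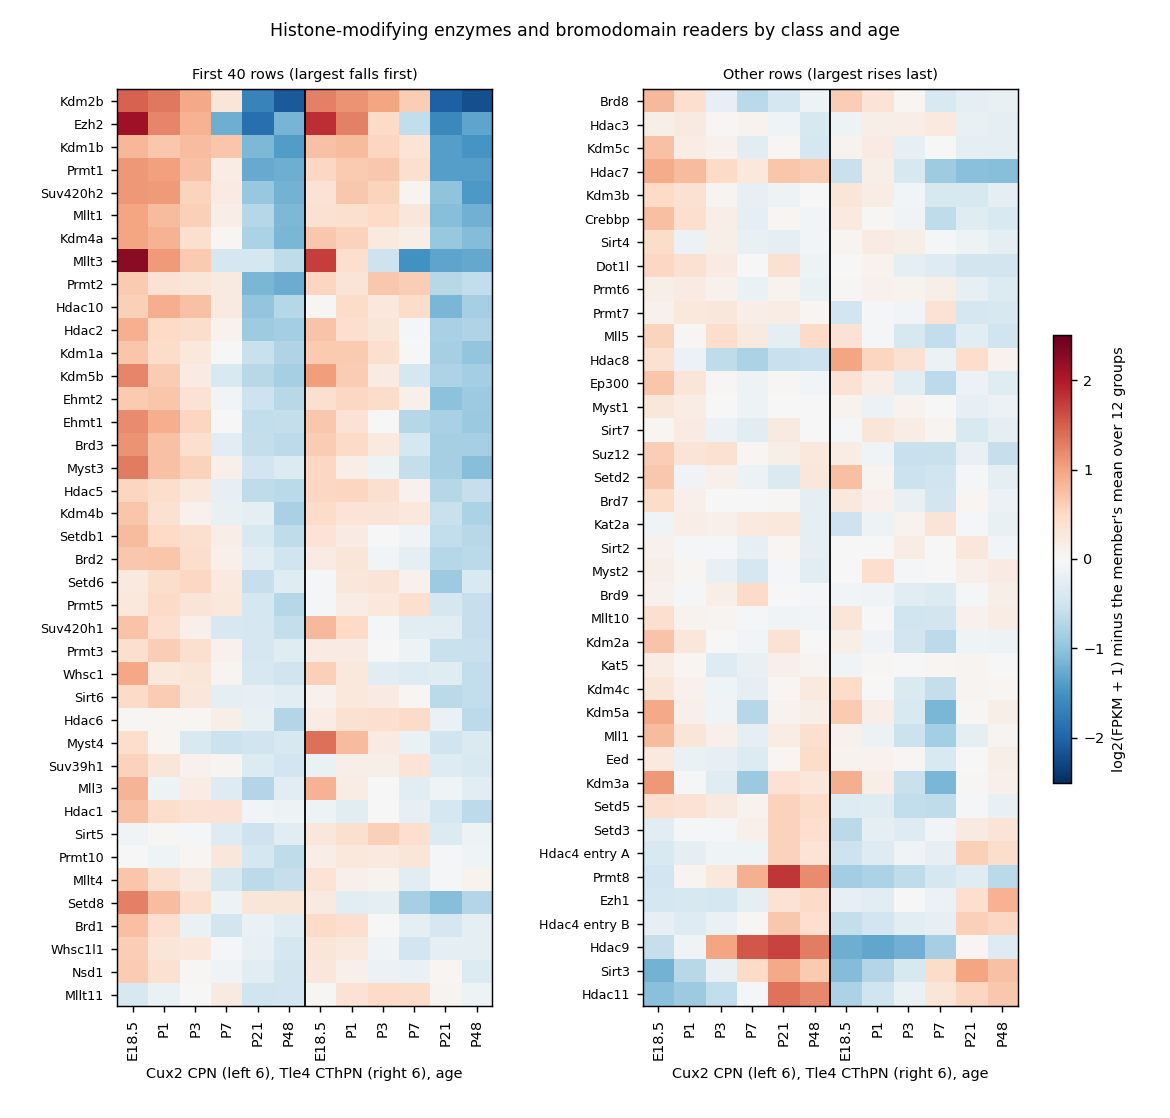
Each row is 1 of 79 of the 80 members and each column 1 of the 12 groups (Cux2 CPN on the left of each panel, Tle4 CThPN on the right, by age), and color gives log2(FPKM + 1) minus the member's mean over the groups. Members are ordered by their mean early to late change, from Kdm2b to Hdac11, and most are red at E18.5 and blue at P21 and P48.

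**Figure D2:**
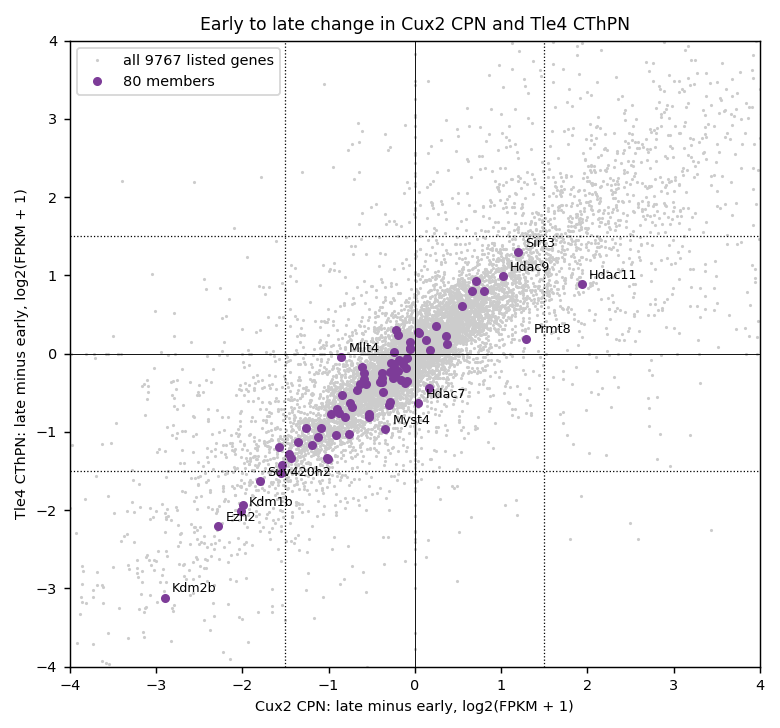
Early to late change in Cux2 CPN (x axis) and Tle4 CThPN (y axis), both as differences of log2(FPKM + 1), for the 80 members over the 9767 listed genes in grey, of which those past the ends of the axes are not drawn. Dotted lines mark the limit of 1.5, and 6 members lie beyond it at the lower left in both classes while none does at the upper right.

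The changes of the members ran alike in the classes, with a Pearson correlation of 0.927 across 80 members and 0.788 across all listed genes (genes are not independent replicates, and both groups of values come from the same table). The sign differed for 8 members (10%, against 16.6% of listed genes), Brd7, Brd9, Hdac7, Kdm2a, Mllt10, Myst2, Sirt2 and Sirt7. Of these only Hdac7 had a change beyond 0.5 in either class.

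The catalytic subunits of PRC2 changed their order by level with age. Ezh2 measured 39.96, 21.02, 16.2, 3.02, 1.54 and 3.18 FPKM in Cux2 CPN and, for Tle4 CThPN, 32.8, 21.5, 12.1, 5.13, 2.07 and 2.79 FPKM, here and below in the order of the ages. It was highest at E18.5, was already at 3.02 and 5.13 FPKM at P7, and stayed below every value from E18.5 to P3 at all later ages. Ezh1, which has the same role in the complex, measured 12.5, 12.8, 12.6, 14.7, 22.5 and 24.6 FPKM in Cux2 CPN and, for Tle4 CThPN, 14.9, 14.1, 17.0, 15.5, 23.5 and 32.2 FPKM. Its late values lay above all early values in each class, and the pair crossed between P1 and P7. The early to late changes were -2.28 and -2.204 for Ezh2, past the limit of 1.5, and 0.80 and 0.80 for Ezh1 (here and below with Cux2 CPN named before Tle4 CThPN). The other core subunits kept a narrower range: Suz12, which holds the complex together, ranged over 10.7 to 25.8 FPKM in all groups with changes of -0.14 and -0.13, and Eed, which binds methylated H3K27, over 8.50 to 16.0 FPKM with changes of 0.37 and 0.12. Pcna, the only listed gene of cycling cells, was at 62.5 to 82.0 FPKM early and 65.7 to 79.5 FPKM late in Cux2 CPN, and at 82.8 to 93.4 and 71.5 to 74.3 FPKM in Tle4 CThPN. In the promoter stretches shown above, Ezh2 and Suz12 both hold an E2F motif, while Suz12 did not share the fall of Ezh2.

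**Figure D3:**
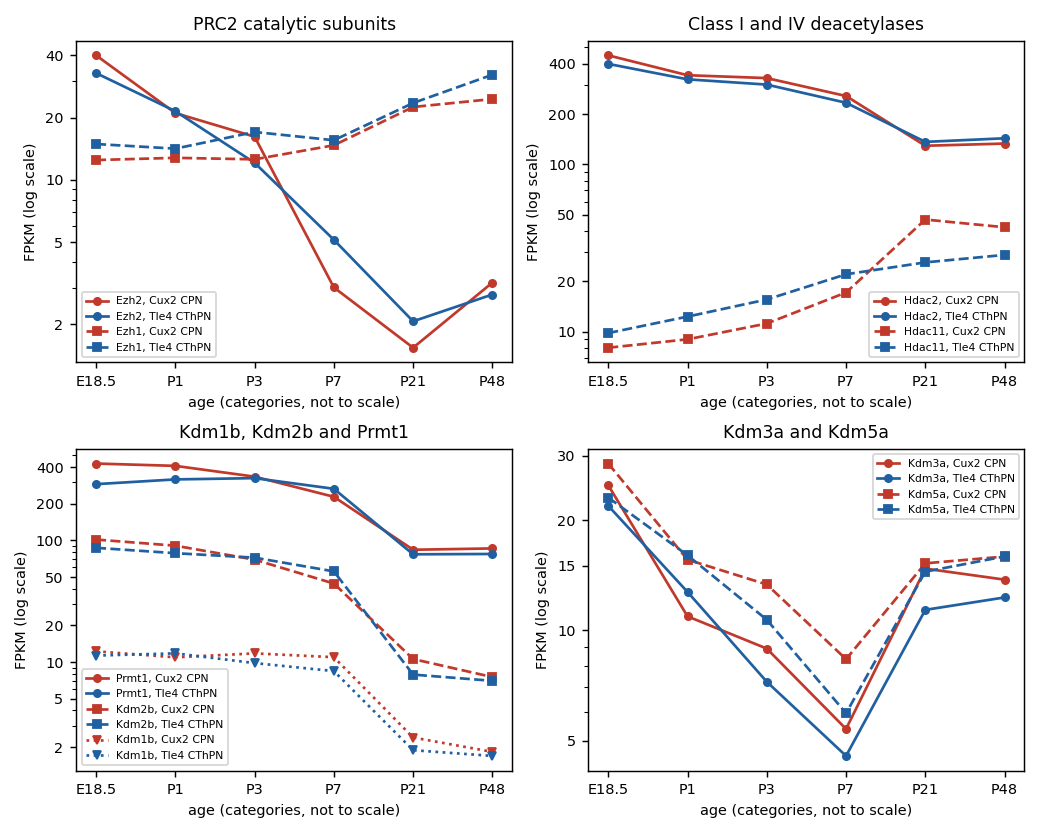
FPKM on a log scale by age in Cux2 CPN (red) and Tle4 CThPN (blue), 1 point per group, for PRC2 catalytic subunits, Hdac2 with Hdac11, Prmt1 with Kdm2b and Kdm1b, and Kdm3a with Kdm5a. Ezh2 and Ezh1 cross between P1 and P7, and Kdm2b and Kdm1b drop between P7 and P21.

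Among the methyltransferases of H3K9, a mark of silent chromatin, all 4 listed members had changes below 0, and Ehmt2 fell in both classes. Ehmt1 and Ehmt2 form the complex for mono- and dimethylation. Ehmt1 measured 70.4, 58.2, 45.0, 30.3, 19.6 and 19.9 FPKM in Cux2 CPN and, for Tle4 CThPN, 49.5, 39.6, 30.7, 18.3, 17.0 and 15.7 FPKM, and Ehmt2 measured 48.4, 49.5, 39.5, 28.9, 20.98 and 18.498 FPKM in Cux2 CPN and, for Tle4 CThPN, 40.2, 44.2, 42.1, 33.4, 14.4 and 15.7 FPKM. Every late value of both genes was below every early value in its class, and the changes were -1.26 and -0.95 for Ehmt1 and -1.01 and -1.35 for Ehmt2 in Cux2 CPN and Tle4 CThPN; Ehmt1 passed 1 in Cux2 CPN alone. Setdb1, which adds the full trimethyl mark, ranged over 11.7 to 34.5 FPKM, with its highest value at E18.5 and its lowest at P48 in each class, and with changes of -0.97 and -0.77. Suv39h1, the enzyme of constitutive heterochromatin, ranged over 12.2 to 26.1 FPKM with changes of -0.67 and -0.47; 11.3% of its exon bases lie opposite Gm14820. Suv39h2 and Setdb2 were not listed.

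Enzymes of H4K20 differed in their course. Suv420h2, which adds the second and the third methyl group, measured 28.4, 28.0, 19.3, 15.1, 6.20 and 5.06 FPKM in Cux2 CPN and, for Tle4 CThPN, 16.7, 21.02, 19.4, 13.5, 5.87 and 4.13 FPKM. Its late values went up to 6.20 FPKM and its early values down to 13.5 FPKM, and the changes were -1.80 and -1.63, past the limit of 1.5. The paralog Suv420h1 changed by -0.72 and -0.68, with E18.5 values of 57.2 and 61.1 FPKM and P48 values of 22.4 and 22.6 FPKM. Setd8, which adds the first methyl group, is described with the class differences below. For the H3K36 enzymes Nsd1, Whsc1, Whsc1l1 and Setd2, 0 of 4 rose or fell in either class, and Whsc1 had the largest range, 34.6 to 106 FPKM. Dot1l, the H3K79 methyltransferase, ranged over 5.47 to 11.8 FPKM with changes of -0.16 and -0.34.

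Of the H3K4 methyltransferases Mll1 and Mll3 and their family member Mll5, 0 of 3 rose or fell early to late in either class. Mll1 measured 17.9, 12.4, 10.9, 8.29, 11.3 and 13.3 FPKM in Cux2 CPN and, for Tle4 CThPN, 10.8, 8.87, 6.54, 5.05, 8.30 and 10.5 FPKM. Its lowest value was at P7 in both classes, and its P48 value was 13.3 and 10.5 FPKM. Mll3 fell between E18.5 and P7 in both classes, and measured 24.9, 12.3, 15.3, 10.5, 7.70 and 10.99 FPKM in Cux2 CPN and, for Tle4 CThPN, 25.4, 15.5, 13.2, 10.98, 12.4 and 10.9 FPKM. Mll5 ranged over 13.8 to 32.3 FPKM; 11.7% of its exon bases lie opposite Srpk2. Mll2, Setd1a, Setd1b and Setd7 were not listed. Of the other SET domain proteins, Setd3, now known as an actin methyltransferase, ranged over 42.3 to 102 FPKM with changes of 0.55 and 0.60, and its late values lay above all early values in both classes. Setd6 ranged over 12.4 to 35.0 FPKM with changes of -0.81 and -0.81.

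Arginine methyltransferases held a very abundant member that fell and a paralog with the opposite direction. Prmt1, which makes most asymmetric dimethylarginine in the cell, measured 429, 411, 335, 229, 83.9 and 86.0 FPKM in Cux2 CPN and, for Tle4 CThPN, 291, 318, 326, 266, 77.0 and 77.4 FPKM. The early values lay between 229 and 429 FPKM and the late ones between 77.0 and 86.0 FPKM, a change of -1.99 in Cux2 CPN and -1.94 in Tle4 CThPN. Prmt2 measured 145, 118, 114, 107, 41.3 and 38.5 FPKM in Cux2 CPN and, for Tle4 CThPN, 134, 115, 148, 141, 56.5 and 60.0 FPKM. It too was lower at both late ages than at every early age in each class, with changes of -1.57 in Cux2 CPN and -1.19 in Tle4 CThPN. The membrane-bound paralog Prmt8, a brain-enriched enzyme, measured 19.1, 28.1, 32.6, 50.7, 94.5 and 62.4 FPKM in Cux2 CPN and, for Tle4 CThPN, 14.3, 15.1, 17.0, 19.4, 21.5 and 16.4 FPKM. The values climbed at each step up to P21 in both classes, and the change passed 1 in Cux2 CPN and not in Tle4 CThPN, with values of 1.29 in Cux2 CPN and 0.19 in Tle4 CThPN. Prmt3, Prmt5, Prmt6, Prmt7 and Prmt10 had changes between -0.90 and -0.09, of which 0 passed 1 in size.

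The demethylases held the largest fall of all members. Kdm2b, an H3K36 demethylase that binds unmethylated CpG and recruits a variant of PRC1, measured 102, 90.6, 69.5, 44.2, 10.6 and 7.53 FPKM in Cux2 CPN and, for Tle4 CThPN, 86.998, 78.6, 72.2, 55.7, 7.89 and 7.01 FPKM. The lowest early value was 44.2 FPKM and the highest late value 10.6 FPKM, and the change of -2.90 in Cux2 CPN and -3.12 in Tle4 CThPN was the largest fall among the 80 members in both classes. Its paralog Kdm2a had changes of -0.05 and 0.15. Kdm1b (LSD2), which removes methyl groups of H3K4, measured 12.3, 10.9, 11.8, 10.97, 2.40 and 1.83 FPKM in Cux2 CPN and, for Tle4 CThPN, 11.3, 11.8, 9.81, 8.43, 1.88 and 1.69 FPKM. The values lay between 8.43 and 12.3 FPKM up to P7 and dropped at P21, with changes of -2.01 in Cux2 CPN and -2.01 in Tle4 CThPN. Kdm1a (LSD1), its abundant paralog, ranged over 56.1 to 183 FPKM and fell in both classes, with changes of -1.02 and -1.34. Kdm4a, a demethylase of H3K9 and H3K36, measured 40.7, 37.3, 26.9, 20.6, 11.2 and 8.52 FPKM in Cux2 CPN and, for Tle4 CThPN, 32.5, 30.5, 23.8, 22.1, 9.84 and 8.96 FPKM. It fell in both classes, with changes of -1.54 and -1.42, and Kdm4b fell in Tle4 CThPN, with changes of -0.76 and -1.03, while Kdm4c changed by 0.13 and 0.17.

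The Kdm5 family, demethylases of H3K4me3, split. Kdm5b measured 97.4, 64.6, 47.3, 31.5, 24.98 and 22.5 FPKM in Cux2 CPN and, for Tle4 CThPN, 85.2, 64.7, 47.5, 30.0, 23.7 and 22.5 FPKM. It was lower at each age than at the one before in both classes and fell early to late, with changes of -1.19 and -1.17. Kdm5a measured 28.5, 15.6, 13.3, 8.35, 15.2 and 15.9 FPKM in Cux2 CPN and, for Tle4 CThPN, 23.0, 16.0, 10.7, 5.95, 14.5 and 15.9 FPKM. Its lowest value was at P7 in both classes, and so was that of Kdm3a, an H3K9 demethylase. Kdm3a measured 24.9, 10.9, 8.93, 5.39, 14.7 and 13.8 FPKM in Cux2 CPN and, for Tle4 CThPN, 21.9, 12.7, 7.25, 4.55, 11.4 and 12.3 FPKM. Kdm3b, a paralog, ranged over 4.93 to 10.2 FPKM with changes of -0.26 and -0.32. Kdm5a and Kdm3a were the members (2 of 80, 2.5%) that were lower at P7 than at E18.5 by at least 0.5 and higher at P21 than at P7 by at least 0.5 in both classes, against 1.03% of all listed genes; this criterion was chosen after the values were seen. Kdm5c, an X-linked gene of intellectual disability, ranged over 10.0 to 23.8 FPKM with changes of -0.38 and -0.25. Kdm5d, Kdm6a and Kdm6b were not listed, so no demethylase of H3K27 could be followed.

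Of 8 listed acetyltransferases, 1 fell in Cux2 CPN, Myst3, where 13.8% of all listed genes fell. In Tle4 CThPN 0 of the 8 fell, where 11.7% of listed genes did. The median change of the 8 was -0.17 and -0.15. Crebbp and Ep300, the general coactivator pair, ranged over 10.0 to 28.0 FPKM and 4.92 to 14.1 FPKM, with changes of -0.29 and -0.23 for Crebbp and -0.24 and -0.13 for Ep300. Both were lowest at P7 in each class and highest at E18.5. Myst3 measured 20.0, 13.1, 11.7, 8.22, 5.13 and 5.75 FPKM in Cux2 CPN and, for Tle4 CThPN, 11.2, 8.55, 6.82, 4.65, 3.76 and 3.06 FPKM, and changed by -1.09 and -0.95. Myst1, Myst2, Kat2a and Kat5 had changes between -0.18 and 0.17, and Kat5 shares 18% of its exon bases with Rnaseh2c on the other strand.

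Histone deacetylases moved in both directions with age. Hdac2, the most abundant of all members with a mean of 264 FPKM, measured 449, 341, 328, 256, 129 and 133 FPKM in Cux2 CPN and, for Tle4 CThPN, 399, 322, 300.0, 234, 136 and 143 FPKM. Its late values lay between 129 and 143 FPKM and its early values between 234 and 449 FPKM, and it fell in both classes, with changes of -1.35 and -1.14. Its class I paralogs Hdac1 and Hdac3, which work in the Sin3, NuRD and NCoR corepressors, ranged over 11.1 to 30.4 FPKM and 64.8 to 101 FPKM, with changes of -0.56 and -0.39 for Hdac1 and -0.38 and -0.31 for Hdac3. Hdac10, a class IIb enzyme that deacetylates polyamines, measured 28.6, 35.96, 31.8, 21.9, 8.98 and 10.96 FPKM in Cux2 CPN and, for Tle4 CThPN, 19.2, 26.0, 22.7, 26.1, 7.95 and 10.1 FPKM, and fell in both classes, with changes of -1.46 and -1.29. Hdac6, which acts on tubulin, ranged over 13.3 to 31.9 FPKM.

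Hdac11, the class IV enzyme, had the largest rise of the members in Cux2 CPN. It measured 8.02, 8.999, 11.2, 17.1, 46.8 and 42.1 FPKM in Cux2 CPN and, for Tle4 CThPN, 9.81, 12.3, 15.6, 22.0, 26.0 and 28.8 FPKM. The late values exceeded every early value in both classes, and the changes were 1.93 and 0.89. The change differed between the classes by 1.05, and of all members Hdac11 and Prmt8 (2.5%) differed by at least 1, against 12.1% of listed genes. Before P21 the level was higher in Tle4 CThPN at each age, and at P21 and P48 it was higher in Cux2 CPN.

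Class IIa deacetylases, which shuttle between nucleus and cytoplasm with calcium signals in neurons, also split. The table holds Hdac4 as 2 entries, and the annotation (GENCODE vM1, build NCBIM37) has 2 neighbouring genes of that name on the minus strand of chromosome 1, at 93825362 to 93827753 and 93829334 to 94044970. The table does not tell which entry is which. The entry with the higher level, here called A, measured 11.02, 12.2, 13.5, 13.5, 22.4 and 18.7 FPKM in Cux2 CPN and, for Tle4 CThPN, 10.0, 11.6, 13.7, 12.6, 22.7 and 20.3 FPKM. Entry B ranged over 6.82 to 17.9 FPKM. Both were higher at both late ages than at every early age in each class, with changes of 0.67 and 0.80 for A and 0.72 and 0.93 for B. Hdac5 went the other way, and measured 61.1, 56.8, 50.8, 36.2, 26.7 and 25.7 FPKM in Cux2 CPN and, for Tle4 CThPN, 60.2, 61.4, 55.5, 45.3, 25.1 and 27.7 FPKM, with changes of -0.91 and -1.04. Hdac9 had changes of 1.02 and 0.99, on either side of the limit of 1, and with a pseudocount of 0.1 in place of 1 these were 1.26 and 1.77, past the limit in both classes. Hdac7 changed by 0.04 and -0.63, and the values of both are given with the class differences below.

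Of the 6 listed sirtuins, NAD-dependent deacetylases, only Sirt3 rose. Sirt3, the main deacetylase of mitochondria, measured 14.1, 19.9, 29.2, 46.7, 64.9 and 52.7 FPKM in Cux2 CPN and, for Tle4 CThPN, 15.1, 19.5, 24.8, 46.0, 66.1 and 55.7 FPKM. The level climbed at every step up to P21 in both classes and was above all early values at P21 and P48, a change of 1.20 in Cux2 CPN and 1.29 in Tle4 CThPN. Of its exon bases, 13.6% lie opposite Psmd13 and Ric8, and the counting is not stated to use strand. Sirt2, Sirt4, Sirt5, Sirt6 and Sirt7 had changes between -0.81 and 0.17, and Sirt1 was not listed.

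Brd2 and Brd3, BET proteins whose bromodomains bind acetylated histones at active genes, were lower late to different degrees. Brd2 measured 135, 136, 114, 91.9, 68.6 and 59.3 FPKM in Cux2 CPN and, for Tle4 CThPN, 97.6, 104, 80.4, 71.6, 50.9 and 52.1 FPKM. Brd3 measured 60.7, 46.1, 36.2, 22.3, 17.8 and 16.9 FPKM in Cux2 CPN and, for Tle4 CThPN, 42.8, 38.5, 32.3, 19.8, 14.9 and 14.9 FPKM. Both had all late values below all early values in each class, and Brd3 fell in both, with changes of -1.12 and -1.06, while Brd2 changed by -0.88 and -0.75. The bromodomain proteins Brd1, Brd7, Brd8 and Brd9 had changes between -0.49 and 0.24.

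The Mllt genes, most of them known as fusion partners of Mll1 in leukemia, included 2 with falls in both classes. Mllt3 (AF9), a reader of acylated lysine by a YEATS domain, measured 81.9, 35.4, 26.4, 12.0, 11.8 and 10.2 FPKM in Cux2 CPN and, for Tle4 CThPN, 56.2, 22.1, 11.1, 5.05, 5.90 and 6.12 FPKM. It fell by at least 1 from E18.5 to P1 and again from P3 to P7 in both classes. Mllt1 (ENL), its paralog, ranged over 11.1 to 54.1 FPKM and changed by -1.55 and -1.52, past the limit of 1.5 in both classes. Mllt4, the adhesion protein afadin, changed by -0.85 and -0.05, and Mllt10, a partner of Dot1l, by -0.21 and 0.30. Mllt11 stayed between 107 and 213 FPKM. Without these 5 genes the median change of the other 75 members was -0.30 and -0.35. Of these 75, 13 fell in both classes (17.3%, against 8.52% of listed genes). In each single class 15 fell (20%, against 13.8% of listed genes in Cux2 CPN and 11.7% in Tle4 CThPN). By the limit of 1.5, 7 fell in Cux2 CPN (9.33%, against 7.04%) and 5 in Tle4 CThPN (6.67%, against 5.46%). Both late values lay below all early values for 30 of the 75 in Cux2 CPN (40%, against 29.5%) and 38 in Tle4 CThPN (50.7%, against 30.7%). The counts of rises were the same with and without the Mllt genes.

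Class differences were fewer than age differences. By the limit of 1.5, 1 member was higher in Cux2 CPN early (Hdac9, 1.25%, against 2.72% of listed genes) and 3 were late (Hdac7, Hdac9 and Prmt8, 3.75%, against 3.44%). None was higher in Tle4 CThPN, where 2.54% of listed genes were early and 3.63% late. By a limit of 1, these counts were 2 early (2.5%, against 4.87%) and 4 late (5%, against 6.06%) for Cux2 CPN and 0 for Tle4 CThPN, against 4.81% early and 5.82% late. The median difference, Cux2 CPN minus Tle4 CThPN, was 0.17 early and 0.13 late over members, and 0.02 and 0.04 over all listed genes. It was above 0 for 57 of 80 members early and 53 late (71.2% and 66.2%), against 53% and 54.5% of listed genes.

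Hdac9 had the largest mean difference between the classes over the 6 ages, 1.61, and was also the least abundant member, with a mean of 3.51 FPKM. It measured 1.29, 2.22, 5.78, 8.98, 10.0 and 7.33 FPKM in Cux2 CPN and, for Tle4 CThPN, 0.471, 0.395, 0.479, 0.937, 2.51 and 1.73 FPKM. It never reached 10 FPKM in Tle4 CThPN, and at each age its level was higher in Cux2 CPN, by 0.64, 1.21, 2.196, 2.36, 1.65 and 1.61 from E18.5 to P48 on the log2 scale. It was listed only through Cux2 CPN, at a maximum of 10.0 FPKM, so its listing rested on its level in that class. Hdac7 measured 10.6, 9.64, 7.57, 6.39, 8.85 and 8.50 FPKM in Cux2 CPN and, for Tle4 CThPN, 3.18, 5.80, 3.66, 2.29, 1.95 and 1.94 FPKM. It was higher in Cux2 CPN at all ages by 1.47, 0.65, 0.88, 1.17, 1.74 and 1.69, and it too was listed only through that class. Prmt8, whose values are given above, was higher in Cux2 CPN by 0.39, 0.85, 0.90, 1.34, 2.09 and 1.87, and here the difference grew with age up to P21. Setd8 measured 88.9, 63.0, 49.0, 33.2, 45.0 and 45.1 FPKM in Cux2 CPN and, for Tle4 CThPN, 42.7, 30.2, 30.8, 20.1, 17.0 and 21.6 FPKM. It was higher in Cux2 CPN by 1.04, 1.04, 0.65, 0.70, 1.35 and 1.03. Setd5, a gene of intellectual disability, measured 31.5, 30.3, 27.3, 24.7, 35.2 and 32.6 FPKM in Cux2 CPN and, for Tle4 CThPN, 18.6, 18.6, 14.9, 14.6, 22.5 and 20.5 FPKM. Hdac7, Hdac9, Setd5 and Setd8 were higher in Cux2 CPN by at least 1.5-fold at all 6 ages (5%, against 3.19% of listed genes), and of these 4 Hdac7 and Hdac9 are listed only through that class.

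Interneuron genes stood beside these differences, since 11 of 13 were listed and Gad1 was at 18.1 to 34.2 FPKM in Cux2 CPN and 0.971 to 6.95 FPKM in Tle4 CThPN. The sum of the 11 was 365 to 867 FPKM in Cux2 CPN and 39.0 to 1352 FPKM in Tle4 CThPN, where Npy alone was at 1334 FPKM at E18.5, and only Pvalb was at 0 in some group. The part of interneuron RNA in the class differences was not tested.

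In the other direction, Hdac8 was the only member higher in Tle4 CThPN by at least 1.5-fold at all 6 ages (1.25%, against 3.48% of listed genes), and it is listed only through that class. Hdac8, a class I enzyme that deacetylates cohesin, measured 9.52, 6.33, 4.27, 3.70, 4.56 and 4.59 FPKM in Cux2 CPN and, for Tle4 CThPN, 15.2, 10.8, 9.56, 6.32, 10.1 and 7.68 FPKM. The differences ran -0.62, -0.68, -1.003, -0.64, -0.99 and -0.63. Myst4, an acetyltransferase of the MOZ family, measured 11.3, 8.31, 5.92, 5.18, 5.41 and 5.81 FPKM in Cux2 CPN and, for Tle4 CThPN, 22.4, 14.5, 9.39, 7.02, 5.42 and 6.07 FPKM. It was higher in Tle4 CThPN at every early age and by little at the late ages, with differences of -0.93, -0.74, -0.59, -0.38, -0.0021 and -0.05. Mllt11, Sirt5 and Prmt10 followed in this order, with mean differences over the ages of -0.43, -0.40 and -0.28.

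**Figure D4:**
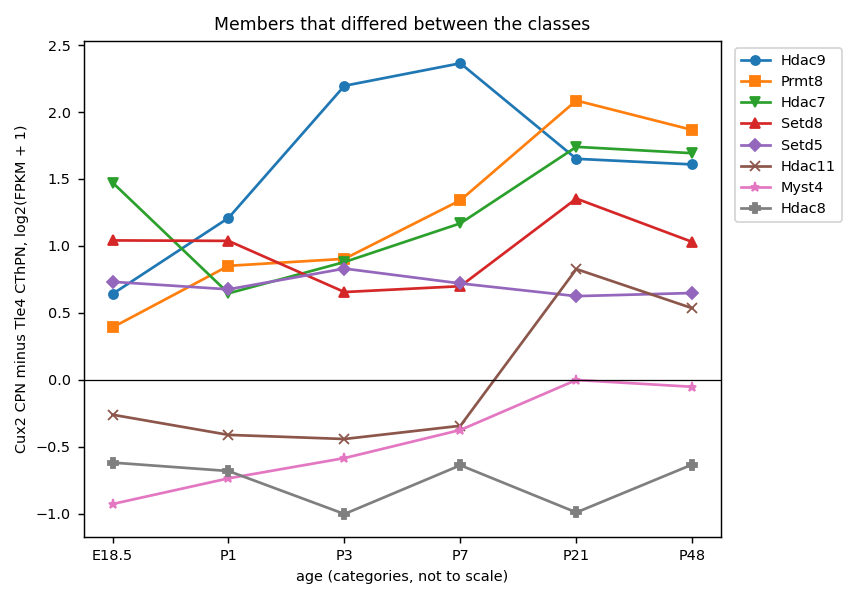
Difference between the classes, Cux2 CPN minus Tle4 CThPN on the log2(FPKM + 1) scale, by age for 8 members, 1 point per age. Hdac9, Prmt8, Hdac7, Setd8 and Setd5 lie above 0 at each age, Hdac8 lies below 0 at each age, and Hdac11 passes from below to above 0 between P7 and P21.

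The time of change is given here beside that of the listed genes. From E18.5 to P7, 18 members fell in Cux2 CPN (22.5%, against 9.92%) and 16 in Tle4 CThPN (20%, against 7.96%), while 4 rose in Cux2 CPN (5%, against 15.4%) and 2 in Tle4 CThPN (2.5%, against 11%). From P7 to P21, where change is most frequent in the table, 8 members changed in Cux2 CPN (10%, against 20.3%) and 12 in Tle4 CThPN (15%, against 20.9%). Of these Hdac10, Kdm1b, Kdm2b, Prmt1, Prmt2 and Suv420h2 fell in both classes (7.5%, against 4.99%). In the steps before, changes of at least 1 were rare. In Cux2 CPN they were 2 from E18.5 to P1 (2.5%, against 4.86%), 1 from P1 to P3 (1.25%, against 2.57%) and 2 from P3 to P7 (2.5%, against 6.89%). In Tle4 CThPN they were 1 (1.25%, against 3.02%), 0 (against 1.54%) and 2 (2.5%, against 3.69%). From P21 to P48 no member changed by 1 in either class, where 2.15% and 1.88% of listed genes did. The E18.5 to P7 count and the counts of non-overlap, of 1.5-fold at all ages and of class-dependent change were defined after values had been seen.

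The members have a long annotated exon length, counted over all exons of a gene joined, and this length went with the early decline. The annotated exon length of the 78 members with 1 annotation entry had a median of 5730.5 bases, against 3653 over 9492 listed genes. Across these members the Spearman correlation of length with the change from E18.5 to P7 was -0.52 for Cux2 CPN and -0.60 for Tle4 CThPN, and over all listed genes -0.12 and -0.27. With the change from P7 to P21 it was 0.13 and 0.34 across members, and with the early to late change -0.07 and 0.06. The points of a class share its libraries, and genes are not independent replicates. The part of exon length in the early decline was not tested, and the length of the transcripts present is not known.

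**Figure D5:**
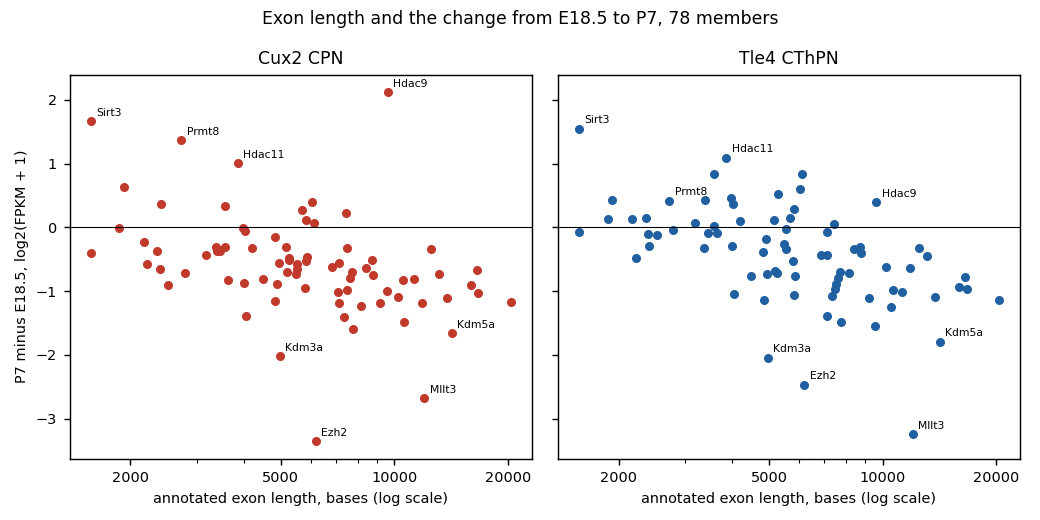
Annotated exon length on a log scale (x axis, bases) and the difference of log2(FPKM + 1) between P7 and E18.5 (y axis) for 78 members in Cux2 CPN (left) and Tle4 CThPN (right). Long members lie mostly below 0, while the short members lie on both sides of it, Sirt3 far above.

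The partners of these enzymes that the symbol pattern leaves out were taken from fixed lists. Of 66 genes in lists of PRC2 accessory and PRC1 proteins, deacetylase corepressors, MLL and SET1 core subunits and other methyltransferases and demethylases, 56 were listed, with a median change of -0.35 and -0.32. In both classes 7 of the 56 fell and 3 rose, where 8.52% of all listed genes fell and 11.7% rose. Of the 14 listed polycomb partners 2 fell and 2 rose in both classes. The E3 ligase Rnf2 of PRC1 fell, with changes of -1.68 and -1.52, and so did Phc1, with -1.21 and -1.12, while the PRC1 chromodomain proteins Cbx7 and Cbx6 rose. Cbx7 measured 1.53, 2.23, 1.75, 1.88, 10.1 and 20.1 FPKM in Cux2 CPN and, for Tle4 CThPN, 1.23, 1.62, 1.46, 1.83, 8.64 and 16.2 FPKM. Cbx6 measured 28.9, 35.1, 34.9, 60.3, 204 and 154 FPKM in Cux2 CPN and, for Tle4 CThPN, 17.1, 23.8, 21.7, 35.0, 93.9 and 75.7 FPKM. Both were highest at the late ages in each class, with changes of 2.43 and 2.35 for Cbx7 and 2.18 and 1.79 for Cbx6. Of the 20 listed corepressor genes 4 fell in both classes and 1 rose, with a median change of -0.38 and -0.24. Those that fell were Sap30, Sin3b, Mta2 and Rcor2, with changes of -1.34 and -1.48 for Sap30, -1.21 and -1.21 for Sin3b and -1.15 and -1.22 for Mta2 and a range of 5.95 to 58.5 FPKM for Rcor2. Mbd2, a reader of methylated DNA, rose, with changes of 1.52 and 1.22. Of the 10 listed MLL and SET1 core subunits Ash2l fell in both classes, with changes of -1.64 and -1.22, and 0 rose.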

How the data were processed

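For each of 12 groups, 2 classes at 6 ages, RNA of sorted neurons was sequenced as 2 libraries, made from 10 ng of RNA with SMART-Seq v4 and Nextera XT. The authors trimmed the reads, used TopHat2 for the alignment to the mouse genome (NCBIM37, mm9) and Cuffdiff for FPKM, where both libraries of a group enter 1 value. In the deposited table, 9767 genes have FPKM, and each has a value of 10 or more in some group. Read depth beyond the stated lower bound is unknown, and no interval was given.

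Values were put on the log2 scale after adding a pseudocount of 1 (Python 3.11.15, pandas 2.3.3, numpy 2.4.6), and plots were drawn in matplotlib 3.10.9. With 1 value per group, no test against the spread between replicates was possible and no other was run, and the planned limma test of values per library was not run. Changes were called past a limit of 1.5 or 1 and read against the share of all listed genes that pass it. The computation was tested on simulated data.

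Members, lists and tests were chosen with earlier results of these data known. Members named in the text are the 10 largest rises and falls, the 5 largest class differences each way, fixed families (PRC2, class I and IIa deacetylases, Crebbp and Ep300, BET proteins, H3K9 methyltransferases, the MLL family, Kdm5 and Kdm6) and the highest and lowest level, 48 in all, of which 1 is not reported here. Other members are named where a family is listed in full or with values chosen after they were seen. Exon lengths, overlaps and positions come from GENCODE vM1 of the same build, and promoter windows from RefSeq (GRCm38.p6).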

Additional observations from a re-analysis of the deposited data

How the results depend on the processing

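No paired analysis was possible because the table gives 1 value per group over both libraries, and for the same reason no library could be left out. The alternatives were scaling by median ratios, a pseudocount of 0.1, a floor of 30 FPKM in some group, early ages without P7, E18.5 against P48 only, limits of 1 and 2, and leaving out the Mllt genes. Over the early to late changes and class differences of the named members, all 19 values past 1.5 kept their sign under the first 5 alternatives that applied to them (12 were left at 30 FPKM), and 18 were still past 1.5 for E18.5 against P48 and without P7. Of all 192 such values, most of them small, 174 kept their sign for E18.5 against P48. The median change of members in Cux2 CPN and Tle4 CThPN was -0.38 and -0.37 with the pseudocount, -0.36 and -0.35 with scaling, -0.56 and -0.53 at 30 FPKM (all genes 0.00906 and 0.00261), -0.47 and -0.40 without P7 (all genes in Tle4 CThPN -0.00374), -0.76 and -0.55 for E18.5 against P48 (all genes in Cux2 CPN -0.0128), and -0.30 and -0.35 without Mllt genes. The counts that follow use the limit of 1.5 for early to late changes and class differences and 1 for consecutive ages, unless another limit is named. Members past the limit downwards in Cux2 CPN and Tle4 CThPN, 8 and 6 by the settings used above, were 15 and 13 for E18.5 against P48, 17 and 17 at a limit of 1, and 3 and 3 at 2. Members past it upwards, 1 and 0 by those settings, were in Cux2 CPN 2 without P7, 4 for E18.5 against P48, 4 at a limit of 1 and 0 at 2, and in Tle4 CThPN 1 with the pseudocount (Hdac9), without P7, for E18.5 against P48 and at a limit of 1. Members higher in Cux2 CPN, 1 early and 3 late by those settings, were early 0 at 30 FPKM, without P7 and at E18.5, and 2 at a limit of 1, and late 1 at 30 FPKM. Changes between consecutive ages in Cux2 CPN at 30 FPKM were 5 between P7 and P21, 1 between E18.5 and P1 and 0 between P1 and P3, and from P21 to P48 1 with the pseudocount. The cause of these shifts was not tested. The missing library values limit every comparison, since no spread between replicates can be given.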
